A study of Mus musculus with 4 samples.

Results

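H3K27ac, acetylated lysine 27 of histone H3, marks active enhancers and promoters, and its peaks in mouse Th17 cells were joined here into clusters that hold no protein-coding gene. Peaks at most 12.5 kb apart were stitched into 1 cluster, and a cluster was kept when its peaks summed to at least 5000 bp and its span, gaps included, overlapped no protein-coding gene of RefSeq GRCm38.p6 on chromosomes 1 to 19 and X. The rule kept 427 of 18748 clusters (2.28%), with 3493 of 56284 peaks (6.21%) and 5.06 of 64.6 Mb of acetylated length (7.82%). They are called gene-free clusters here, although many overlap noncoding genes and 4 lie in the T cell receptor beta locus, whose gene segments RefSeq does not class as protein-coding. Summed peak width is called acetylated length, and positions are in GRCm38 (mm10).

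The study examined this mark in 2 independent biological replicates of cultured Th17 cells, the helper T cells that make IL-17. For each replicate the labels name an H3K27ac IP library and an input DNA library, 2 of each in all. Every library came from naive CD4+ T cells of C57BL/6 mice, cultured for 72 h on hamster IgG-coated plates with 20 ng/mL IL-6, 0.1 ng/mL TGF-β, 1 µg/mL anti-CD28 and 0.25 µg/mL anti-CD3ε, and no genotype is given in the sample labels. The names in the deposited peak list carry WT and Ddx5, the symbol of an RNA helicase gene, and no source used here says what these stand for. The deposited peak list has 56285 positions and no score or value per library, so no value below has a replicate error, the depth is unknown, and there is no second condition to compare with. The clusters were chosen by the positions and widths of the peaks, so widths and spans are given as descriptions without tests. Shares carry exact 95% Clopper-Pearson intervals, which cover the number of clusters only. Clusters that lie between the same genes, and clusters that share a nearest gene, are not independent.

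Enhancers are stretches of DNA that raise transcription of a gene from a distance, often by looping past other genes. Cells that have committed to a lineage carry long runs of acetylated enhancers near genes of their identity, and such runs are often called super-enhancers when a ranked signal is available. No signal was available here, so length is the only measure of size. Gene deserts, the long stretches between genes, hold enhancers of several lymphocyte genes, among them Myc.

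Peaks at marker genes fitted the label of the cells as T cells. A peak within 1000 bp of either annotated end of a gene, called a gene-end peak here, was present at 8 of 8 T cell genes (among them Cd3e, Cd4 and Lck) and at the Th17 genes Il17a and Il23r. It was present at 0 of 4 B cell genes, 1 of 5 myeloid genes (Cd14), 1 of 3 NK cell genes (Eomes), 1 of 2 Th1 genes (Tbx21) and 2 of 3 Th2 genes (Il4 and Il13). Over all coding genes the share with a gene-end peak was 53.8%, so these counts do not set Th17 cells apart from Th1 or Th2 cells. The part of other cells in the gene-free clusters was not tested.

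Sequences were available for the noncoding genes that these clusters cover, and a few are shown because they are the transcribed elements inside otherwise gene-free acetylated DNA. The first set are the mature miRNAs, short RNAs that pair with messenger RNAs through the seed at bases 2 to 8, which is in capitals. Sequences are RefSeq entries for GRCm38.p6, 5′ to 3′.
miR-29a-3p: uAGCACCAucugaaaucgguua
miR-29b-3p: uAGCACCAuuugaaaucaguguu
miR-23a-3p: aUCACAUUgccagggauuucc
miR-27a-3p: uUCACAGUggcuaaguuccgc
miR-24-3p: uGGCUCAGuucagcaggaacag
miR-182-5p: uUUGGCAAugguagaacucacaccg
miR-96-5p: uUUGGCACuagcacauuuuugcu
miR-183-5p: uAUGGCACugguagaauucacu
The miR-29a and miR-29b strands share 1 seed. The seeds of miR-23a, miR-27a and miR-24 differ from each other, and so do those of miR-182, miR-96 and miR-183.

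The second set are promoter windows of noncoding genes that start inside a peak of a gene-free cluster, from 250 bases before to 50 bases after the start. Their clusters lie between Satb1 and Kcnh8, Akr1e1 and Klf6, Cd83 and Jarid2, Myb and Hbs1l, and Olig3 and Ifngr1, in the order shown, and they were picked because a T cell list gene is on 1 side. The nearest gene is Satb1, Klf6, Jarid2, Hbs1l and Ifngr1 in turn. Capitals mark matches, on either strand, to the letters TGANTCA (the AP-1 motif, bound by Fos and Jun family factors), TGTGGT (the RUNX motif), GGGCGG (the GC box) or TATAAA (the TATA box).
Gm19585, chr17:52149039-52149338, plus strand: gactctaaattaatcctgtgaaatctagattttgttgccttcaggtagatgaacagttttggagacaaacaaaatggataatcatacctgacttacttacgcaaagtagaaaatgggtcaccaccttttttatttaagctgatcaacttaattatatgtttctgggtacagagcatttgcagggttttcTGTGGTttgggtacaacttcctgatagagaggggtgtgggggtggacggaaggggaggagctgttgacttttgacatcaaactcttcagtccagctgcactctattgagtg
Gm35413, chr13:5803106-5803405, minus strand: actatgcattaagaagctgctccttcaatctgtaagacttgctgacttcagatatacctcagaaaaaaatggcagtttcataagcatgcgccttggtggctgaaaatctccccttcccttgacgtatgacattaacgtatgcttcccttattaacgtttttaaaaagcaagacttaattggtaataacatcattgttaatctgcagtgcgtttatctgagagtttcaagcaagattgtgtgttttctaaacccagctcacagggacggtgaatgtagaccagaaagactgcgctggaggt
Gm40930, chr13:44504378-44504677, plus strand: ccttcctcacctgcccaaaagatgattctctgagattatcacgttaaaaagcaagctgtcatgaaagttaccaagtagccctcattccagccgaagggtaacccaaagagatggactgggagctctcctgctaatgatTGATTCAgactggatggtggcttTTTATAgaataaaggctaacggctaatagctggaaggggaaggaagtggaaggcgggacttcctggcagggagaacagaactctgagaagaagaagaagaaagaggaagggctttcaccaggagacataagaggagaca
Gm33728, chr10:21252193-21252492, minus strand: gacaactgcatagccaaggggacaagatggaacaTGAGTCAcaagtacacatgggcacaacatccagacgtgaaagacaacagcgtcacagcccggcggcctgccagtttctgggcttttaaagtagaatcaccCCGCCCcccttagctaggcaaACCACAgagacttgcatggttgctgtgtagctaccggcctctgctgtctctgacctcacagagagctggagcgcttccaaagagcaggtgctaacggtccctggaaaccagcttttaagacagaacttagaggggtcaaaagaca
Gm33104, chr10:19494393-19494692, plus strand: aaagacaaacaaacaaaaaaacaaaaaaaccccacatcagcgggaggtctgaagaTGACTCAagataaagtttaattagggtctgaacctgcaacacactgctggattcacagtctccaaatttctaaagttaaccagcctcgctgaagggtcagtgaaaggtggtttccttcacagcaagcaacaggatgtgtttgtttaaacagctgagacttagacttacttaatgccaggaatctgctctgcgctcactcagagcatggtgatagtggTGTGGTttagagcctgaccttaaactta
The Gm35413 window has no match to these letters. The peak over the Gm19585 start was 8802 bp wide, and those over Gm35413, Gm40930, Gm33728 and Gm33104 were 2686, 4933, 2044 and 5018 bp wide.

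The longest gene-free cluster lay deep in the gene desert beside Myc, the transcription factor that drives growth of activated T cells. At chr15:62724033-62849607 its 24 peaks summed to 94.3 kb, 75.1% of its span, and it sat 734 kb from Myc and 926 kb from Gsdmc, a gasdermin gene. The next was chr6:31061964-31193433, with 39 peaks and 66.1 kb between Klf14 and Mkln1, and this cluster covers the genes of miR-29a and miR-29b-1. The third, chr5:53378164-53453363, held 64.0 kb in 15 peaks, 99.6 kb from Smim20 and 102 kb from Rbpj, the DNA-binding partner of Notch. Its widest peak of 31277 bp was also the widest in any gene-free cluster. These 3 clusters therefore reached their length in different ways, by many peaks in the Klf14 and Mkln1 cluster and by few wide ones between Smim20 and Rbpj.

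The fourth in length lay beside Satb1, a chromatin organiser of developing T cells, at chr17:52103520-52186223, with 59.0 kb in 23 peaks, 270 kb from the gene. Beyond it came chr14:78351479-78483318 with 49.6 kb between Tnfsf11, which encodes the cytokine RANKL, and Akap11. The cluster chr16:84579204-84651806, with 46.0 kb, had Mrpl39 as its nearest coding gene at 66.5 kb, and the next coding gene on the other side, Ncam2, was 2955 kb away. The noncoding gene Mir155hg, host of the miR-155 that activated T cells make, lies between this cluster and Mrpl39 and was itself in a long cluster that overlaps a coding gene. Mir155hg was 28222 bp from the nearest gene-free cluster, a smaller one of 6662 bp at chr16:84677842-84684800.

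Other clusters of the 20 longest had the following neighbours. Klf6, an immediate early transcription factor, was 55.2 kb from chr13:5744609-5806286, with 41.3 kb and a peak of 20173 bp. Cblb, a ubiquitin ligase that restrains T cell activation, was 309 kb from chr16:51648175-51722040, with 40.6 kb in 29 peaks. Ets1, a transcription factor of T cells, had 2 of the 20: chr9:32897045-32946983 with 38.9 kb at 139 kb, and chr9:32981055-33038522 with 32.5 kb at 223 kb. Bcl11b, which T cells need to commit to their lineage, was 749 kb from chr12:107118084-107161418, with 33.3 kb in 8 peaks, of which the widest had 17438 bp. The coding gene nearest to that cluster was Gm52008, a predicted gene, at 5.95 kb. Cd47, the surface signal that blocks uptake by macrophages, was 31.7 kb from chr16:49765991-49819627 with 32.7 kb, and Ift57, a gene of cilia, was 0.864 kb away on the other side. Foxo1, a transcription factor of resting T cells, was 466 kb from chr3:52816351-52904233 with 31.9 kb in 24 peaks, and Cog6 was nearer at 77.9 kb.

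Of the remaining clusters among the 20 longest, 1 lay in the Myc desert. The set held chr6:144899367-144963135 with 43.7 kb between Sox5 and Bcat1 (an enzyme of branched-chain amino acid breakdown), chr4:8887454-8939331 with 42.3 kb 19004 bp from the chromatin remodeller gene Chd7, and chr7:89997672-90080900 with 39.0 kb between Eed, a Polycomb subunit, and Picalm. A second Myc cluster, chr15:62128535-62192627, also had 39.0 kb and covers part of the noncoding gene Pvt1. Below these were chr12:69400955-69486819 with 34.8 kb beside Arf6, chr7:78667747-78738582 with 34.0 kb beside Mrpl46 and Ntrk3, and chr1:51493501-51544452 with 32.0 kb beside Nabp1. The nearest coding gene had a gene-end peak for 18 of the 20, the exceptions being Klf14 and Gm52008. Over all 427 gene-free clusters the share was 77.5%, and 53.8% of all coding genes had such a peak. No test was made of the 18 against these shares.

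**Figure D1:**
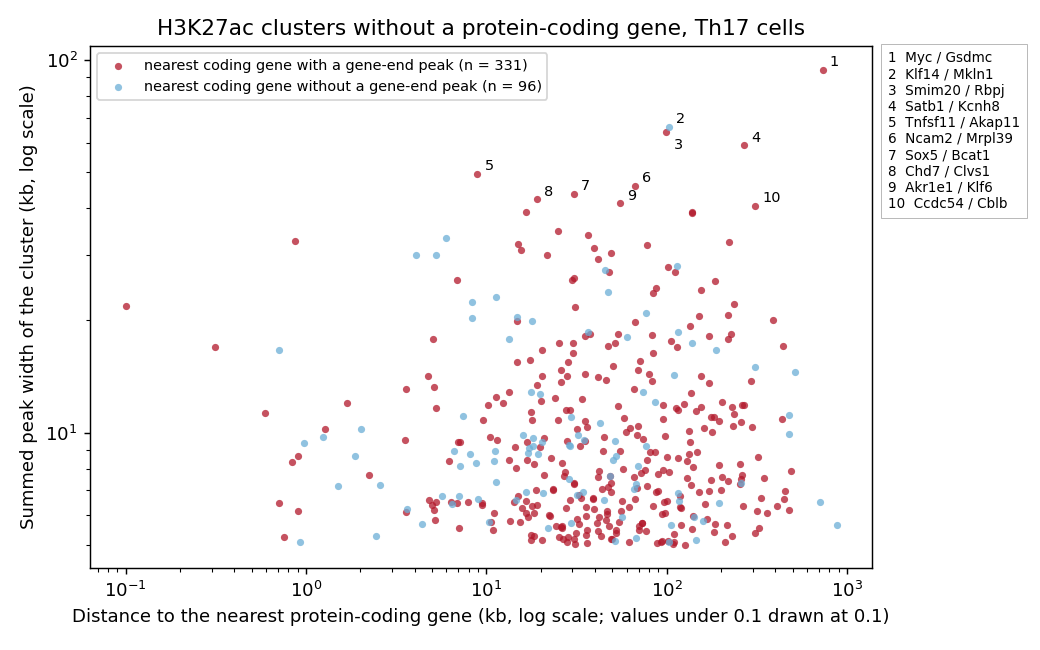
Summed peak width of each of the 427 gene-free clusters (kb, log scale) against the distance to its nearest protein-coding gene (kb, log scale), coloured by whether that gene had a peak within 1000 bp of an end. The 10 longest carry their rank and both neighbouring genes, and they lie from 8.93 kb (Akap11) to 734 kb (Myc) from a gene.

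Median length was similar at every distance from a gene. The nearest coding gene was a median of 44.7 kb away, with quartiles of 17.99 and 110 kb and a range of 0.003 to 879 kb, and 119 clusters (27.9%) lay at least 100 kb from any coding gene. Median acetylated length was 8644 bp below 10 kb from a gene, 8412.5, 8459 and 8818 bp in the bins from 10 to 50, 50 to 100 and 100 to 250 kb, and 7890 bp beyond. The 5 farthest were all in the deserts beside Myc and Cblb: chr15:62888533-62896962 at 879 kb from Gsdmc, the longest Myc cluster at 734 kb, chr16:51298908-51318027 at 708 kb from Ccdc54, chr15:61438033-61456302 at 517 kb from A1bg, and chr15:62480019-62488106 at 490 kb from Myc.

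Gene-free clusters were about as long as the 2738 clusters of at least 5000 bp that overlap a coding gene, and denser. Median acetylated length was 8459 bp in gene-free clusters and 8527 bp in gene-overlapping ones, from a median of 7 peaks in each. The median span was 21232 bp in gene-free clusters, against 24207.5 bp in gene-overlapping ones, and peaks covered a median of 46.1% of the span, against 41.1%. The density gap was wider in long clusters: at 20 kb of acetylated length or more the median was 61.0% in 51 gene-free clusters and 50.6% in 381 gene-overlapping ones. The rule favours short spans, since a longer span is more likely to meet a gene, and its part in these differences was not tested. The widest peak of a cluster had a median of 3920 bp in gene-free clusters and 3945.5 bp in gene-overlapping ones.

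**Figure D2:**
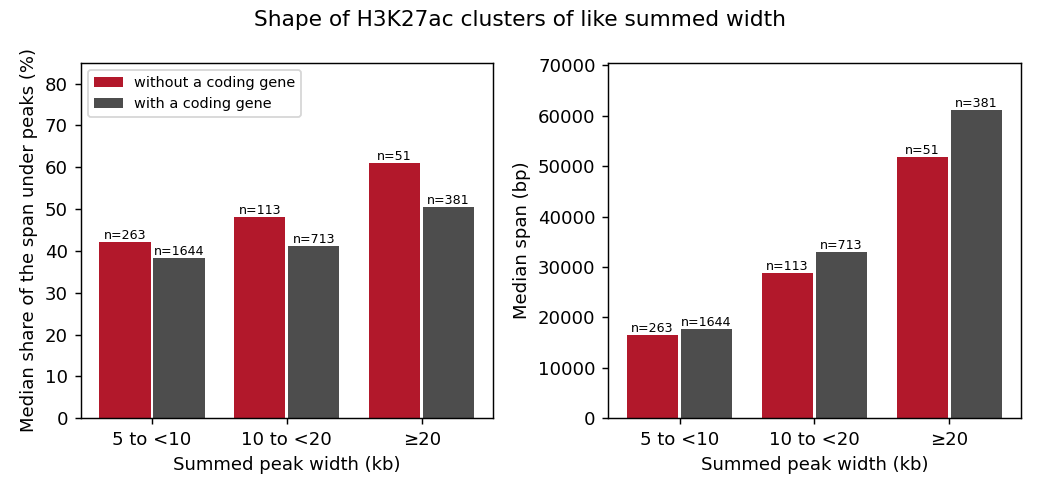
Shape of the 427 gene-free clusters and of the 2738 clusters of at least 5000 bp that overlap a coding gene, by acetylated length. In each length class the gene-free clusters had the higher median covered share and the shorter median span, 42.0% against 38.2% in the shortest class and 61.0% against 50.6% in the longest.

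Among the gene-free clusters, shape varied widely. The number of peaks ran from 1 to 39, and 8 clusters were a single peak. Peaks covered at least 50% of the span in 183 of the 427. The sparsest was chr13:44130213-44185733 between Cd83 and Jarid2, where 13 peaks summed to 5554 bp over a span of 55.5 kb. The widest peaks after that between Smim20 and Rbpj had 20173 bp beside Klf6, 18408 bp in the longest Myc cluster, 18034 bp between Nrn1 and F13a1 (chr13:36789112-36820064) and 17438 bp in the Bcl11b interval.

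Most clusters were alone between their neighbouring coding genes, and some intervals held several. The 427 clusters lay in 316 such intervals, of which 253 held 1 cluster and 63 held at least 2, 174 clusters (40.7%) in all. Longer intervals have more room for clusters, and no comparison with interval length was made. Intervals with 3 or more numbered 22 and held 92 clusters and 27.9% of the acetylated length of gene-free clusters. Both genes of the interval had a gene-end peak in 12 of the 22, 1 gene did in 9, and neither did in 1. Counted per cluster over all 427, both genes had one in 49.6% and neither in 7.49%, so the 22 intervals are not set apart by this. The interval between Myc and Gsdmc held 8 clusters over 1786 kb with 197 kb of acetylated length, 90.3% of all acetylated length in the interval. With 3 more clusters on the other side of the gene, up to A1bg, Myc was the neighbour of 11 clusters with 233 kb. The noncoding gene Pvt1 overlapped 4 clusters. Of the 8 clusters between Myc and Gsdmc, 1 was nearer to Gsdmc.

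Satb1 and Cd83 bordered the next richest intervals. Between Satb1 and Kcnh8, a potassium channel gene, 6 clusters held 146 kb, 75.9% of the acetylated length of the interval, and 1 of them was nearer to Kcnh8. Between Cd83, a surface protein of activated lymphocytes, and Jarid2, a Polycomb cofactor, 8 clusters held 90.0 kb (89997 bp), and 5 were nearer to Jarid2. In the Ets1 and Kirrel3 interval 3 clusters held 81.8 kb, 91.9% of the acetylated length between the genes. Foxo1 and Cog6 bordered 6 clusters with 83.1 kb, and 3 of these were nearer to Cog6, a Golgi subunit. Cblb and Ccdc54 bordered 6 with 78.2 kb, 5 of them nearer to Cblb. Id2, an inhibitor of E proteins, and Rnf144a bordered 6 with 74.3 kb, of which 1 was nearer to Rnf144a. Position alone does not say which gene a cluster acts on.

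The other intervals with at least 3 clusters were as follows. Klf6 with Akr1e1 (72.6 kb), Dusp4, a MAP kinase phosphatase, with Saraf (64.8 kb), and Btg1, an antiproliferative gene, with Eea1 (64.6 kb) each held 4 clusters. Spring1 and Med13l bordered 4 more, with 34.2 kb. Intervals of 3 clusters were Chd7 with Clvs1 (69.6 kb), Cd47 with Bbx (48.9 kb), Tnfaip3 with Olig3 (47.5 kb), Rnf19a with Ankrd46 (36.8 kb), Tab2 with Ust (36.5 kb), Ahr with Agr3 (33.0 kb), Ccnd2 with Parp11 (29.8 kb), Pgrmc2 with Jade1 (24.3 kb) and Pmepa1 with 1700021F07Rik (21.5 kb). Tnfaip3 encodes A20, an inhibitor of NF-κB signalling, and Ahr is a receptor for tryptophan products that raises IL-22 in Th17 cells.

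**Figure D3:**
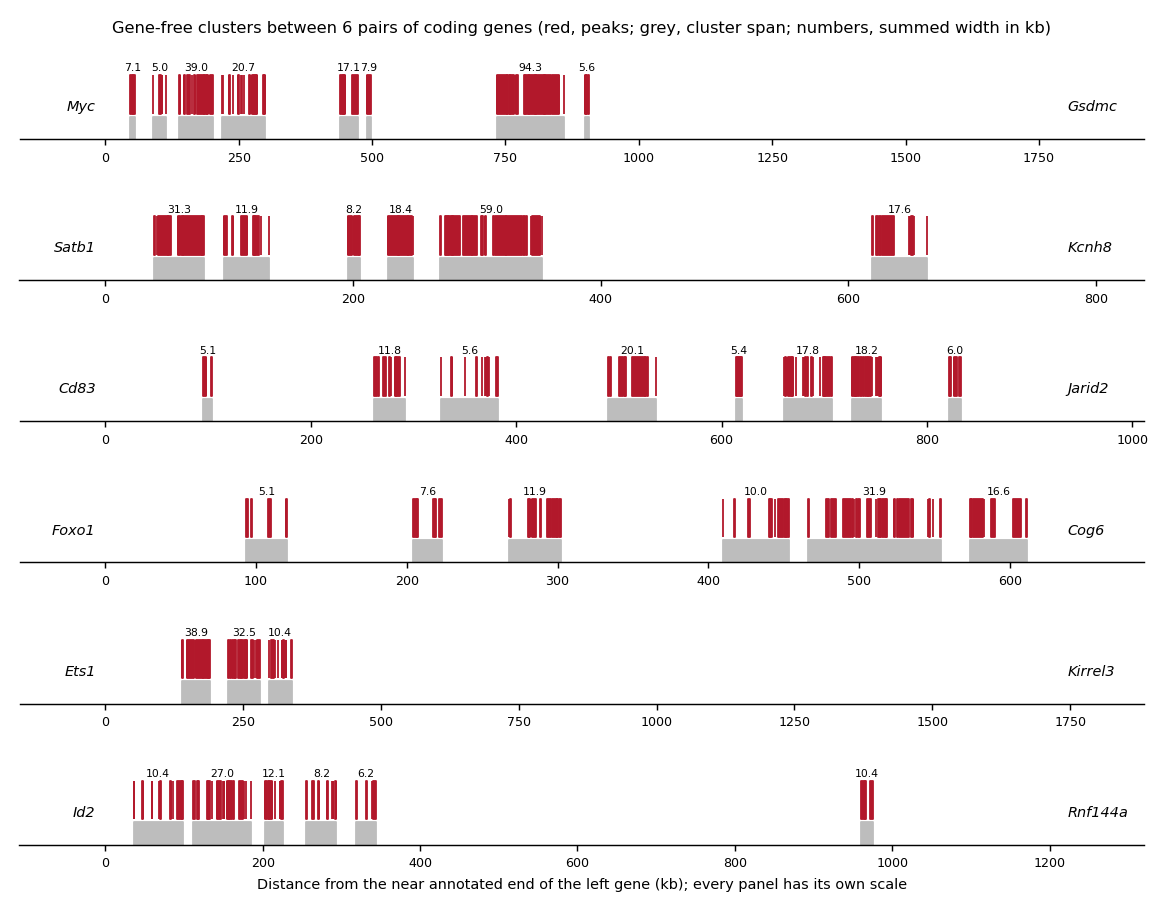
Peaks of gene-free clusters in 6 intervals between neighbouring coding genes, with distance in kb from the end of the gene on the left. Gene-free clusters are drawn as boxes with their acetylated length in kb, and other peaks of these intervals are not drawn. The 24 peaks of the longest Myc cluster, 94.3 kb, lie far from both border genes, and the Cd83 interval holds 8 clusters of smaller size.

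One group of clusters lay among gene segments rather than between genes. In the T cell receptor beta locus, whose V, D and J segments are joined by recombination in T cells, 4 clusters summed to 71101 bp and overlapped 41 segments. The densest, chr6:41530321-41563042 over the D, J and C segments, had 5 peaks that covered 91.5% of its span, 29955 bp. The other 3, of 20906, 12887 and 7353 bp, lay over V segments between 2210010C04Rik and Try4, and they held 99.6% of the acetylated length of that interval. A peak list cannot tell apart acetylation of rearranged and unrearranged copies.

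Known T cell genes were among those that border gene-free clusters. A coding gene is called a flanking gene here when it is the first on either side of a gene-free cluster. That was so of 604 of 21631 coding genes (2.79%), and of 40 of the 168 genes (23.8%) on 5 lists of T cell genes. Counts were 8 of 30 for the Th17 program, 8 of 30 for T cell identity and receptor signalling, 10 of 36 for activation, 4 of 38 for cytokine signalling and 10 of 34 for T helper regulators. Lists of B cell, myeloid, liver, muscle and neuron genes had 0 of 63 flanking genes, and 9 of the 63 had a gene-end peak. At the 2.79% of all coding genes, 63 genes would hold few flanking ones, so this 0 does not set these lists apart from coding genes in general. The lists were drawn up with results of these data known, and no test was made of these counts. Clusters beside list genes numbered 91 (21.3%). Their acetylated length had a median of 10203 bp, against 8262.5 bp in the other gene-free clusters, and 9 of the 20 longest were among them. A list gene was the nearest coding gene for 57 of the 91, and in the other clusters it was the farther neighbour.

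**Figure D4:**
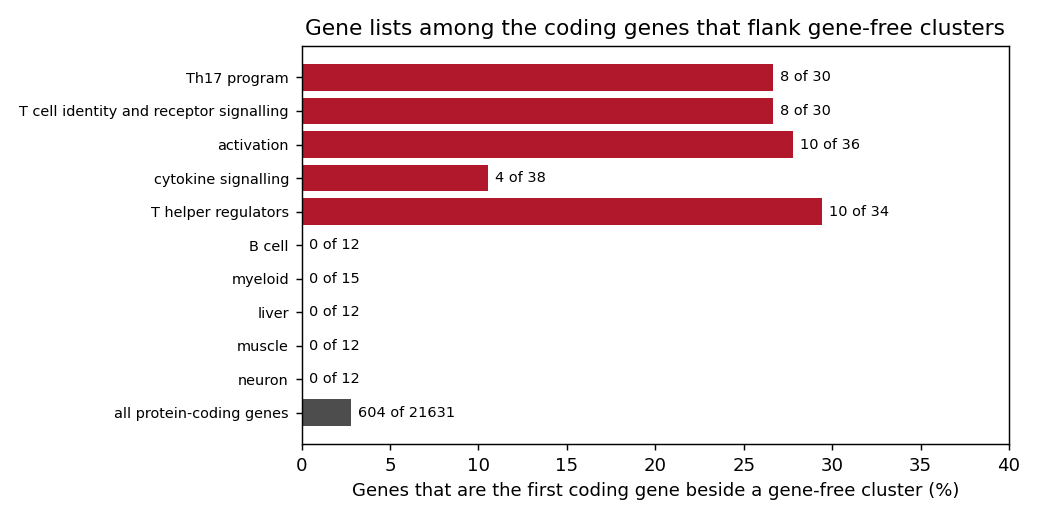
Share of genes on each list that are the first coding gene beside a gene-free cluster, with the share over all protein-coding genes at the bottom (604 of 21631, 2.79%). The 5 T cell lists range from 4 of 38 to 10 of 34 genes, and the lists of other cells and tissues have 0.

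In the Th17 program the flanking genes were Rbpj, Hif1a, Ahr, Basp1, Il6st, Maf, Csf2 and Runx1. Hif1a, the oxygen-sensing factor that favours Th17 cells, was 49.9 kb from chr12:73815935-73851462 with 18.4 kb in 15 peaks, and Prkch was nearer at 37.7 kb. Ahr was 84.1 kb from chr12:35619076-35654247 with 16.4 kb, the longest of its 3 clusters. Il6st, which encodes the signalling subunit of the IL-6 receptor, was 20.2 kb from chr13:112415764-112443847 with 12.2 kb. Maf, a transcription factor that raises IL-10 in helper T cells, was 301 kb from chr8:115384470-115402073 with 10.2 kb, although Wwox was nearer at 31.8 kb. Csf2, which encodes the cytokine GM-CSF, had a cluster of 6522 bp at 89.9 kb, where P4ha2 was nearer at 14.2 kb, and Runx1, a Runt family transcription factor, one of 5294 bp. All of these genes but Rbpj had a gene-end peak, and 26 peaks lay over Rbpj away from its annotated ends.

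T cell identity genes beside clusters were, besides Satb1, Ets1 and Bcl11b, the adhesion receptor gene Cd2, Myb, Runx3, Gata3 and Themis. Cd2 was 30.3 kb from chr3:101212084-101245567, with 16.4 kb. Myb, a transcription factor of progenitors and stem-like T cells, was 61.6 kb from chr10:21222561-21278405, with 15.7 kb in 15 peaks, and Hbs1l was nearer at 17.6 kb. This cluster holds the start of Gm33728 printed above. Runx3, a factor of cytotoxic and Th1 cells, had clusters of 9465 and 6471 bp on either side, at 35.1 and 19.4 kb, the smaller being nearer to Clic4 at 6.89 kb. Gata3, the Th2 regulator that all T cells use in the thymus, was 263 kb from a cluster of 7669 bp.

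Activation genes beside clusters covered receptors, AP-1 factors and survival genes. Icos, a costimulatory receptor, was 21.9 kb from chr1:61022181-61062727, whose 22 peaks summed to 30.0 kb. Tnfaip3 was 150 kb from chr10:19164987-19242111, with 28.0 kb in 28 peaks, and Olig3 was nearer at 114 kb. Cd44, the adhesion receptor of activated and memory cells, was 40.4 kb from chr2:102942106-103014198, with 25.6 kb, and Pdhx was nearer at 6.86 kb. The AP-1 genes had smaller clusters, 10109 bp beside Jun, 8357 bp between Fosl2 and the nearer Babam2, and 5302 bp beside Fos. Bcl2, which protects from cell death, had 12027 bp at 12.3 kb, and the kinase gene Pim1 had 8644 bp at 90.6 kb, where Fgd2 was nearer at 1.87 kb.

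Cytokine signalling had the fewest flanking genes. Ifngr1, a chain of the interferon gamma receptor, was 69.4 kb from chr10:19491597-19522525, with 14.7 kb in 8 peaks, the cluster that holds the start of Gm33104. Il10ra had a cluster of 9095 bp at 18.7 kb, with Tmprss13 at 17.4 kb on the other side. Tgfbr2, a TGF-β receptor, had 6930 bp at 152 kb. Smad7, the inhibitor of TGF-β signalling, had 6119 bp at 13.9 kb, and Ctif was nearer at 3.59 kb. Among T helper regulators, Id2 was 111 kb from chr12:25207587-25281543 with 27.0 kb. Bcl6, the regulator of follicular helper cells, was 193 kb from chr16:24181797-24238580 with 14.2 kb, and Lpp was nearer at 155 kb. Bach2, Etv6, Zeb1, Irf8, Zeb2 and Ets2 had a cluster each, of 7769, 7643, 7032, 6622, 6184 and 5531 bp. Nearer genes on the other side were Bcl2l14 for the Etv6 cluster, Zfp438 for that of Zeb1 and Foxf1 for that of Irf8. The Zeb2 cluster was 3198 kb from the gene and 481 kb from Acvr2a, so being a flanking gene can span very long distances.

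Of the 40 flanking list genes, 39 had a gene-end peak and 34 lay in a gene-overlapping cluster of at least 5000 bp. The exception at gene ends was Rbpj, which had 26 peaks over the gene and lay in such a cluster. Gene-end peaks are common on these lists whether or not a gene flanks a cluster, at 156 of 168 genes (92.9%), against 53.8% of all coding genes, and 140 of the 168 (83.3%) lay in a gene-overlapping cluster of that size.

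Over all gene-free clusters, the nearest coding gene had a gene-end peak in 331 of 427 (77.5%, 73.3 to 81.4), with the peaks of the cluster itself left out. The share was 66.4% for the nearest genes of the 4223 gene-free clusters under 5000 bp, and 53.8% over all coding genes. Within 10 kb of a gene the share was 59.0% in gene-free clusters of at least 5000 bp, against 46.2% in shorter ones. Low values there are built into the rule, since a gene-end peak within 12.5 kb of a cluster would be stitched to it. At 13500 bp or more from the gene, the share was 81.4% (284 of 349, 76.9 to 85.3), against 72.7% of 3140 shorter gene-free clusters. Both flanking genes had a gene-end peak in 212 clusters (49.6%), the nearer gene alone in 119 (27.9%), the farther gene alone in 64 (14.99%) and neither in 32 (7.49%). In shorter gene-free clusters, neither gene had one in 14.2%.

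**Figure D5:**
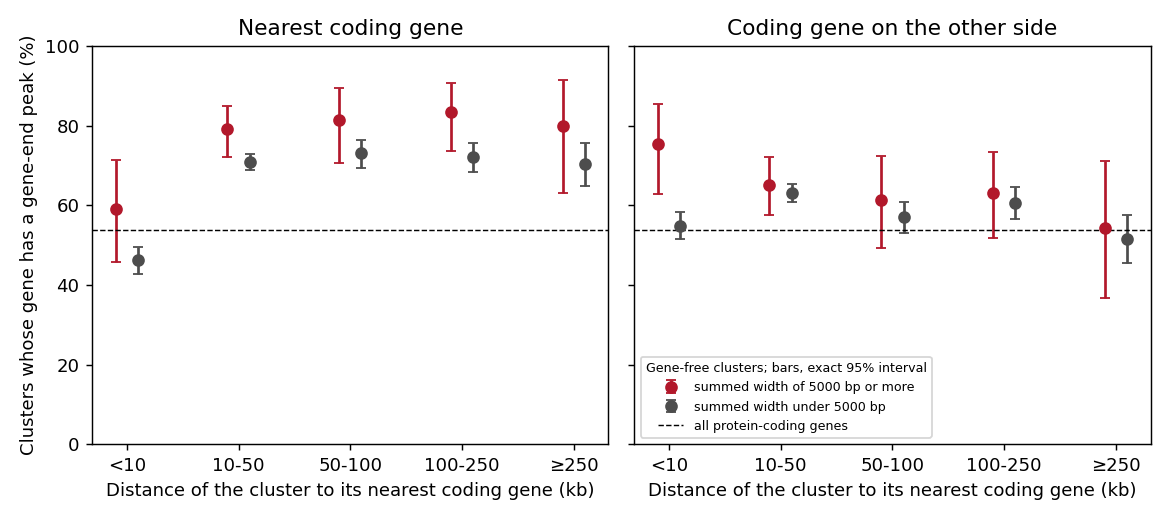
Gene-end peaks at the genes beside gene-free clusters, for the 427 clusters of at least 5000 bp and the 4223 shorter ones, with exact 95% intervals. The dashed line is the share over all coding genes, 53.8%, and below 10 kb the stitching rule itself lowers the share.

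Counted once each, 604 flanking genes included 426 with a gene-end peak (70.5%), and 256 of 341 nearest genes (75.1%) had one. Of the nearest genes, 151 (44.3%) lay in a gene-overlapping cluster of at least 5000 bp, against 24.1% of the nearest genes of shorter gene-free clusters and 20.2% of all coding genes. Gene-free clusters also lay nearer to the next cluster of at least 5000 bp, at a median of 45.1 kb, against 62.7 kb for gene-overlapping clusters of that size. The median distance to a cluster of any size was 18.99 kb in gene-free clusters and 19.08 kb in gene-overlapping ones. Strand was known for the nearest gene of 325 clusters, and 172 of these lay on its 5′ side (52.9%, 47.3 to 58.5). Clusters on the 5′ side were a median of 55.1 kb from the gene, and those on the 3′ side 28.0 kb. Shorter gene-free clusters had the same order, with 37.2 kb on the 5′ side and 24.6 kb on the 3′ side, and 49.2% lay on the 5′ side. A cluster within 12.5 kb of a gene-end peak would be stitched to it, and the part of this in the distances was not tested.

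Most gene-free clusters overlapped a gene of another kind, mostly lncRNAs. An annotated gene other than a coding one was overlapped by 249 of 427 (58.3%, 53.5 to 63.0), against 29.2% of the shorter gene-free clusters. Median spans were 21232 bp in the longer clusters and 1061 bp in the shorter ones. Overlapped lncRNA genes per 100 kb of span were 2.58 in the longer clusters and 9.34 in the shorter ones. A gene that only partly overlaps a cluster counts in full, which raises the rate for short spans, so these rates do not compare lncRNA density. A lncRNA gene was overlapped by 209 clusters (48.9%), a pseudogene by 42 and a miRNA gene by 5. Morrbid, a lncRNA near the cell death gene Bcl2l11 that controls the life span of myeloid cells in mice, was overlapped by chr2:128366348-128403312. In that cluster 25 peaks summed to 16.6 kb, 204 kb from Bcl2l11 and 188 kb from the nearer gene Spdye4c. Xist, the RNA of X inactivation, was overlapped by chrX:103480967-103495279, with 5932 bp in 2 peaks.

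The 11 miRNA genes in gene-free clusters, whose mature strands are printed above in part, differed in how close the peaks came. A peak of 2653 bp lay over the hairpins of miR-23a, miR-27a and miR-24-2 in chr8:84183344-84210630, with 17.0 kb of acetylated length, 0.311 kb from Zswim4. In the 66.1 kb cluster beside Klf14, no peak lay over miR-29a or miR-29b-1, and the nearest, of 300 bp, was 396 bp from miR-29a and 759 bp from miR-29b-1. No peak lay over miR-182, miR-96 or miR-183 in chr6:30159842-30176172, which had 2 peaks and 6520 bp between Nrf1 and Ube2h, and the nearest were 3025, 3152 and 2966 bp away. Mir3089 lay under a peak of 7711 bp in chr2:30690105-30728864, with 19.8 kb. In chr5:32085785-32107016, between Babam2 and Fosl2, the miRNA gene Gm51292 was 539 bp from a peak. Peaks lay over 5 of the 11 miRNA genes. Besides those named, this counts Mir3074-2, which overlaps Mir24-2 and lay under the same peak of 2653 bp. The share of all miRNA genes under a peak was not computed.

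Some miRNAs known from activated lymphocytes lay outside gene-free clusters, at 2191 to 29339 bp, and their mature strands are shown beside those distances.
miR-146a-5p: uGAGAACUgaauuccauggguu
miR-155-5p: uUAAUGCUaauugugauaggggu
miR-221-3p: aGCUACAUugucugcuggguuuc
miR-222-3p: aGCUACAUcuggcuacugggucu
The hairpin of miR-146a, which restrains NF-κB signalling, was 2191 bp from chr11:43376653-43396053, with 12.4 kb in 10 peaks, and had no peak over it. Those of miR-221 and miR-222, which share 1 seed, were 9306 and 8723 bp from chrX:19155695-19171694, with 15020 bp in 4 peaks. The hairpin of miR-155 was 29339 bp from the nearest gene-free cluster and lay under a peak of a gene-overlapping one.

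Starts of noncoding genes inside peaks of gene-free clusters had about the CpG content of noncoding starts in general, and less than those in other peaks. RefSeq windows showed 126 such starts of 105 genes in 88 clusters (20.6%). The ratio of observed to expected CpG was at least 0.6 in 21 of 126 (16.7%, median ratio 0.288), against 14.0% of all noncoding starts in the table (median 0.245). It was 27.1% of 240 noncoding starts in peaks of shorter gene-free clusters and 58.6% of 1602 in all other peaks. Those other peaks lie in clusters that overlap a coding gene, where a noncoding start can be close to a coding one. The rule leaves such starts out of gene-free clusters, and its part in the CpG and motif differences from other peaks was not tested. Motif shares are given for the 126 windows first, then for all noncoding windows, shorter gene-free clusters and other peaks. The AP-1 letters TGANTCA occurred in 19.8% (25 windows), against 9.31%, 14.2% and 7.30%. The RUNX letters TGTGGT occurred in 25.4%, against 20.1%, 22.9% and 15.04%. The GC box GGGCGG occurred in 19.8%, above the 16.3% of all noncoding windows and below the 31.2% and 53.1% of the other sets of starts in peaks. Letters CCGGAA, the core of the ETS motif, occurred in 4.76% (6 windows), against 7.94%, 16.7% and 21.7%. The TATA box TATAAA occurred in 12.7%, against 15.5%, 14.6% and 7.93%. The E-box letters CACGTG occurred in 7.14%, against 5.90%, 10.4% and 9.24%. Over all windows in the table, coding ones included, the shares were 7.81% for AP-1, 16.8% for RUNX, 35.7% for the GC box and 14.9% for ETS. They were 13.6% for the TATA box and 7.15% for the E-box. Windows of 1 gene can overlap, base composition differs between the sets, and a match is not a bound site.

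Gene-free clusters were spread unevenly over chromosomes. Per 10 Mb of sequence outside coding genes there were 2.72 on all chromosomes together, 6.27 on chromosome 15, which holds the Myc intervals, and 5.13 on chromosome 10, which holds those of Tnfaip3 and Btg1. Chromosomes 11 and X had 1.21 and 0.960. On chromosome 11, 8 of 269 clusters of at least 5000 bp were gene-free (2.97%), whereas on chromosomes 12 and 15 the share was 24.4% and 24.1%. Over the genome it was 427 of 3165 (13.5%, 12.3 to 14.7), against 4223 of 15583 clusters under 5000 bp (27.1%). Clusters of at least 5000 bp have longer spans, which are more likely to meet a gene, and the part of span in this difference was not tested.

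At the threshold, the smallest clusters kept had 5004 bp beside Trib1, 5008 bp beside Dusp6 and 5015 bp between Abhd17b and Cemip2. Just outside were 4984 bp between Fli1 and Ets1, 4982 bp between Zeb1 and Arhgap12 and 4977 bp between Cacng3 and Rbbp6. An Ets1 and a Zeb1 cluster thus missed the rule by fewer than 25 bp.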

How the data were processed

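H3K27ac ChIP-seq of mouse Th17 cells was deposited as 1 peak list for 2 IP and 2 input DNA libraries. Per the submitters' processing notes, the build was GRCm38 (mm10), and the tools named are MACS2 2.2.6, Bowtie2 2.3.4.1, deepTools and SAMtools 1.9. Per the series' design text, input DNA of both replicates went into the MACS analysis. In the sources used here, the peak threshold and any pooling of replicates are not given. Per the file's columns, the authors deposited chromosome, start, end and name, with no score, p-value or count. Peak names share 1 prefix, and their numbers run from 15 to 71449 with 15164 absent, and no source says why. For TGF-β the growth protocol has a range, whereas the treatment label has 0.1 ng/mL. Read depth is unknown.

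Starts were taken as counted from 0, since the smallest width was then exactly 100 bp in 788 peaks, and are printed counted from 1. Peaks on chromosomes 1 to 19 and X were stitched at 12.5 kb and clusters classed by an overlap of at least 1 bp with 21631 protein-coding genes of a RefSeq GRCm38.p6 table, which gives gene ends without strand. Strand, promoter windows and miRNAs came from RefSeq sequence tables of the same build, in which not every gene has an entry. Peak sequences were not analysed here.

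Clusters, gene lists and alternatives were chosen with earlier results of these data known, and no test was run. Named are the 20 longest clusters, up to 4 clusters for each flanking gene on the 5 T cell lists, clusters over miRNA genes, the 5 farthest from a gene, the 5 with the widest peaks, intervals with at least 3 clusters, and clusters at the threshold. For some list genes, among them Ahr, Icos and Jun, only the longest cluster is described, and for Basp1 and Themis none is. The printed promoters, Morrbid, Xist, Pvt1, the T cell receptor clusters, the cluster of lowest covered share and the miRNAs outside clusters were chosen after their values were seen. A marker gene of Th17 cells is not reported here. Stitching and overlap code was tested on simulated peaks. Alternatives were stitching at 5000 and 25000 bp, a summed width of at least 3000 or 10000 bp, peaks of at least 500 bp, spans free of any annotated gene, spans with 1000 bp margins, overlap of peaks but not gaps with genes, and gene-end windows of 500 and 2500 bp. Values were computed with pandas 2.3.3 and scipy 1.17.1 (numpy 2.4.6) in Python 3.11.15, and figures drawn with matplotlib 3.10.9.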

Additional observations from a re-analysis of the deposited data

How the results depend on the processing

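Most values depend on how clusters are defined. Against 427 gene-free clusters there were 834 at a summed width of at least 3000 bp, 164 at 10000 bp and 178 when no annotated gene of any kind was allowed in the span. In these 3 sets and with stitching at 5000 bp, median acetylated length was 5090, 15629, 7787.5 and 7683 bp. Median span was 14191, 35136, 17823 and 12155.5 bp in the same order, 36323 bp with stitching at 25000 bp and 17988.5 bp from peaks of at least 500 bp. The covered share was 50.1% at 10000 bp, 51.2% without any gene, 70.2% and 28.7% with stitching at 5000 and 25000 bp, and 54.0% from peaks of at least 500 bp. Median peak numbers ran from 4 (peaks of at least 500 bp) through 5 (3000 bp, or stitching at 5000 bp), 6 (no gene) and 8 (stitching at 25000 bp) to 10 (10000 bp). The share over another annotated gene was 48.9% at 3000 bp, 66.5% at 10000 bp, and 49.3% and 63.5% with stitching at 5000 and 25000 bp. Median distance to a gene was 34.9 and 58.9 kb with those stitchings and 53.8 kb without any gene. The nearest gene had a gene-end peak in 81.4% and 72.9% with those stitchings, against 77.5%. Flanking list genes were 63 with stitching at 5000 bp, 23 at 10000 bp and 19 without any gene, against 40. Intervals with at least 2 clusters were 38 (stitching at 25000 bp), 141 (3000 bp), 22 (10000 bp) and 23 (no gene), against 63. In all, 40 values moved beyond the interval of the main value or 1.5 times a count, and 37 did not.

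The overlap of peaks but not gaps gave no distances, and the set free of any gene gives no share over other genes by construction. No paired analysis was possible because the list holds no value per library, and for the same reason leaving out a replicate was not run. The depth is unknown.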
